A study of Homo sapiens with 18 samples.

Results

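A2ML1 and A2M, a pair of genes of the alpha-2-macroglobulin family of protease inhibitors, were followed in human embryonic stem cells cultured in low oxygen. They are 2 of the 23536 features of the deposited table and were chosen by name (1 Entrez gene feature each). A2ML1 was chosen because it was higher in hypoxia at 24 h and at 7 d in these same arrays, so its values at those times are a description and carry no test. A2M was taken as its best-known relative.

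RNA was measured on 18 exon arrays, from the human embryonic stem cell (hESC) lines HS401, HS360 and H9 after 2 h, 24 h and 7 d in hypoxia (4% O2) or in normoxia (21% O2). Each of the 6 groups held 3 arrays, 1 for each line, so the replicates of a group were 3 different lines and each line had 1 culture per condition. All cultures grew on Matrigel without feeder cells in mTeSR1 medium, whereas the stock cultures had been kept on human foreskin fibroblasts. The plates for 7 d entered hypoxia 1 day after seeding, those for 24 h after 2 days and those for 2 h after 3 days in normoxia. The 7 d plates thus differed from the others both in time in hypoxia and in time on the plate.

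Alpha-2-macroglobulin, the product of A2M, is a large secreted inhibitor of blood plasma that is made mainly in the liver. A protease that cuts its exposed bait region is trapped as the inhibitor folds around it, and the complex is then taken up by cells through the receptor LRP1. A2ML1 (alpha-2-macroglobulin like 1) is its relative of the upper epidermis, where it is secreted by keratinocytes and inhibits proteases of several classes, the kallikrein KLK7 among them. Neither gene is a usual marker of embryonic stem cells.

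In short, hypoxia cultures of each line had more A2ML1 signal at 24 h (1.69-fold on average) and at 7 d (1.95-fold), and no difference was detected at 2 h (1.11-fold). A2M was not detectably changed at any time. The lines themselves differed in A2ML1, with HS401 above H9 and H9 above HS360 in each of the 6 groups.

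RefSeq (GRCh38.p14) gives A2ML1 a pair of start sites on the plus strand of chromosome 12, and the 300 bases around each (250 before to 50 after the start) are shown because a hypoxia-responsive gene is usually searched for the core site of the hypoxia-inducible factors, ACGTG or GCGTG. Capitals mark that core, the longer CACGTG that holds it, and the TATA box TATAAA, all searched on both strands.
A2ML1 first start, chr12:8822371-8822670, plus strand: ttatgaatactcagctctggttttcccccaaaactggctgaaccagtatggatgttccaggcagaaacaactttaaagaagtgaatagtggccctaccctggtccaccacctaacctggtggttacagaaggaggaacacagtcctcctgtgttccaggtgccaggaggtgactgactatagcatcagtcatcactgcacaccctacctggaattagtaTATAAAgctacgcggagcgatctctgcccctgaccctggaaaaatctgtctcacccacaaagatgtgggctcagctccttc
A2ML1 second start, chr12:8844754-8845053, plus strand, 22.4 kb downstream: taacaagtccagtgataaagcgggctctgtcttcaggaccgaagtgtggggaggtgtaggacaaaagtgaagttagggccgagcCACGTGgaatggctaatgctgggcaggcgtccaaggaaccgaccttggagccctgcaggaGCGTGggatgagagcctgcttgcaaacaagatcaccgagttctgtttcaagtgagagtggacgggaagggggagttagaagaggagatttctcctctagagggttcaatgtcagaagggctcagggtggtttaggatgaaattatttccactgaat
The first window held TATAAA at position -31 and neither form of the core. The second held CACGTG at -166, which reads as ACGTG on each strand, and GCGTG at -106, but no TATAAA. At least 1 ACGTG or GCGTG was present in 48.4% of the 35116 windows of this length in the annotation, CACGTG in 7.26% and TATAAA in 11.5%. At least 3 positions with the core were found in 10.1% of windows and at least 2 in 23.1%. The second window held 3 by this count, 2 of which are the same CACGTG read on each strand. The matches describe the letters of the windows only. Which start was used in these cells was not measured, since the array values were summarized over the whole gene.

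The 18 arrays had median intensities between 131.6 and 160.9. The lower quartile, on the log2 scale, lay at 5.64 to 5.70 on 5 of them and at 5.89 to 6.17 on the remaining 13. The 5 arrays of low lower quartile were H9 in hypoxia at 2 h and 24 h, HS401 in normoxia at 2 h, and HS401 in hypoxia and in normoxia at 24 h. All 12 hESC markers examined, among them SOX2, LIN28A and DNMT3B, lay above the median feature on average, as did 11 of 13 fibroblast markers. Of the markers of the tissues where the inhibitors are best known, 1 of 14 epidermis genes (KRT14, a basal keratin, named after its values were seen) and 1 of 10 hepatocyte and visceral endoderm genes did so. In bulk RNA of this kind, a change in the number of cells that hold a transcript and a change in its amount per cell cannot be told apart. The median hypoxia minus normoxia value of 14 genes known to respond to hypoxia was 0.83, 0.90 and 0.82 on the log2 scale at 2 h, 24 h and 7 d. The list holds genes, HK2 and DDIT4 among them, that the paper called higher at each time on these same arrays. Its median is thus a description and no independent check of the exposure.

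After 2 h the A2ML1 intensity was 131 in hypoxia against 111 in normoxia in H9. In HS360 it was 82.7 in hypoxia against 73.5 in normoxia, and in HS401 165 against 161. The lines stood further apart than the oxygen conditions at this time, each hypoxia array lay just above its own normoxia partner, and the ranges of the groups overlapped almost fully. The mean was 126 ± 41.5 in hypoxia and 115 ± 43.8 in normoxia (SD, n = 3 each). The difference was 0.15 on the log2 scale (SE 0.15, 95% interval -0.18 to 0.47), with an adjusted p of 1 from limma over all features. The exact sign-flip test over the 3 lines gave p = 0.25, the smallest value that 3 lines allow. All 3 lines were higher, which held for 6.01% of all features at 2 h, and at this time no feature passed the adjusted threshold of 0.05 (0% of all, 0.782% at an unadjusted p under 0.05). In HS401 the difference was 0.04 on the log2 scale, and its hypoxia array ranked A2ML1 lower among all features (percentile 53.3) than its normoxia array did (55.2).

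After 24 h the A2ML1 intensity was 226 in hypoxia against 119 in normoxia in H9, and 309 against 159 in HS401. In HS360 it was 121 in hypoxia against 91.8 in normoxia. The gap was widest in HS401 and H9 and narrowest in HS360, and the groups still overlapped because the HS360 hypoxia array lay below the HS401 normoxia array. The mean was 219 ± 94.0 in hypoxia and 123 ± 33.6 in normoxia (SD, n = 3 each). The log2 differences were 0.92 in H9, 0.40 in HS360 and 0.96 in HS401, with a mean of 0.76 (SE 0.15), a fold of 1.69. That value was the 65th from the top of all features, of which 99.7% had a lower one. The rank follows from the choice of A2ML1 by its rise at this time and is a description. Of all features, 0.378% were higher at 24 h by the thresholds of the study, a fold over 1.5 with an unadjusted p under 0.01. In each line hypoxia was higher, as for 8.74% of all features. Of the 5 arrays of low lower quartile 3 belong to this time (H9 in hypoxia and HS401 in both), and without those 5 arrays the estimate was 0.41, which rests on HS360 as the sole hypoxia array at 24 h. The part of the low arrays in the larger value was not tested.

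After 7 d the A2ML1 intensity was 214 in hypoxia against 89.3 in normoxia in H9. In HS360 it was 161 in hypoxia against 77.2 in normoxia, and in HS401 242 against 164. No array of low lower quartile belongs to this time. The HS401 normoxia array again lay just above the HS360 hypoxia array, and all other hypoxia arrays lay above all normoxia arrays. The mean was 206 ± 41.3 in hypoxia and 110 ± 47.2 in normoxia (SD, n = 3 each). The log2 differences were 1.26 in H9, 1.06 in HS360 and 0.56 in HS401, with a mean of 0.96 (SE 0.15), a fold of 1.95 and the 40th place from the top of all features, 0.51% of which were higher by the study's thresholds. Features higher by these thresholds at both later times made up 0.085% of all, and 0.0595% were so at both later times and not at 2 h. The rank of A2ML1 and its place among such features follow from how it was chosen and are a description. The order of the lines by the size of the difference was not that of 24 h.

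**Figure D1:**
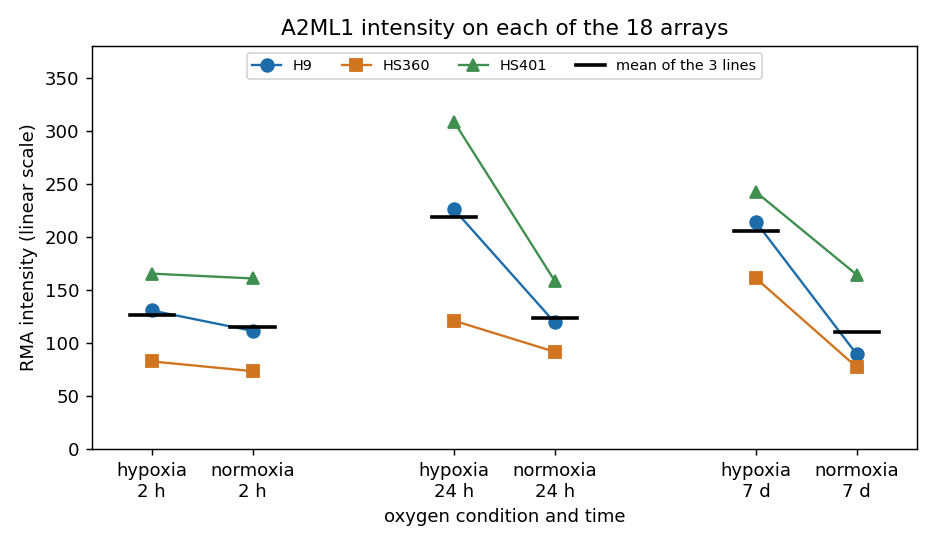
A2ML1 RMA intensity (linear scale) on each of the 18 arrays, with hypoxia left of normoxia at 2 h, 24 h and 7 d, a line joining the arrays of one hESC line and a black bar at the mean of the 3 lines. The hypoxia means are 126, 219 and 206 and the normoxia means 115, 123 and 110, and HS401 is the top line and HS360 the bottom line throughout.

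Over the 3 times, A2ML1 was higher in hypoxia in 9 of 9 pairs of arrays, which was so for 0.561% of all features and follows in part from how it was chosen. Within hypoxia its log2 mean was 6.92 ± 0.51 at 2 h, 7.67 ± 0.69 at 24 h and 7.66 ± 0.30 at 7 d (SD, n = 3 each). Within normoxia it was 6.78 ± 0.57, 6.91 ± 0.40 and 6.70 ± 0.58 at the same times. The normoxia values stayed within the spread between lines over the week, and in hypoxia the level at 7 d differed from that at 24 h by -0.01 on the log2 scale. Ordered by mean intensity, hypoxia at 24 h (219) and at 7 d (206) came first. Hypoxia at 2 h (126) and normoxia at 24 h (123), 2 h (115) and 7 d (110) followed. The SD of a group is a spread between the 3 lines, which all groups share, so it is not the error of these differences. The order was not tested. A2ML1 stood above the median feature of its array on 6 of the hypoxia arrays and on 3 of the normoxia arrays, between percentiles 28.7 and 75.1 over all 18. Such a rank also depends on the probes of each feature.

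The differences between lines were not used in choosing A2ML1 and were tested. In HS401 its intensity had a lowest value of 159, a median of 165 and a highest of 309 over 6 arrays. In H9 these were 89.3, 125 and 226, and in HS360 73.5, 87.2 and 161. In normoxia alone the values ran from 159 to 164 in HS401, from 89.3 to 119 in H9 and from 73.5 to 91.8 in HS360, so that HS401 stood clear of both other lines, which just overlapped. HS401 exceeded HS360 by 0.99 on the log2 scale (SE 0.11, 95% interval 0.76 to 1.22, limma adjusted p = 3.96e-05) and H9 by 0.47 (SE 0.11, interval 0.24 to 0.69, adjusted p = 0.0116). HS360 was lower than H9 (-0.53, SE 0.11, interval -0.75 to -0.30, adjusted p = 0.0135). The same order of the 3 lines was found in all 6 groups, as for 0.421% of all features. The F test over lines gave an adjusted p of 8.84e-05, and 15.1% of all features passed it, with 13.4% passing for HS401 minus HS360, 10.1% for HS401 minus H9 and 3.34% for HS360 minus H9. Without the 5 arrays of low lower quartile HS401 still exceeded HS360 (0.92, adjusted p = 0.00616), whereas the differences of HS360 from H9 (-0.41, adjusted p = 0.178) and of HS401 from H9 (0.51, adjusted p = 0.0919) no longer passed. Of the 10 measured hepatocyte and visceral endoderm markers, 5 also differed between lines by the F test, with HS401 above H9 by 1.91 for APOA1, 1.74 for TTR, 1.62 for APOA2, 1.46 for AFP and 1.35 for APOB. These 5 were named after their values were seen. Their part in the line differences of A2ML1 was not tested. Of the 23 other measured genes around A2ML1 and A2M on chromosome 12, 9 passed the F test over lines, against 15.1% of all features. RIMKLB and M6PR, the measured genes on either side of A2ML1, passed it (limma adjusted p = 0.00325 and 0.0126). HS401 minus H9 was 0.40 and 0.32 in them and HS360 minus H9 -0.23 and -0.19, the same order as in A2ML1. Whether these line differences have a shared basis was not tested.

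A2M was measured on the same arrays. After 2 h its intensity was 49.5 in hypoxia against 86.8 in normoxia in H9, the widest gap of any pair. In HS360 it was 72.0 in hypoxia against 65.3 in normoxia, and in HS401 64.0 against 61.4. The lines went in opposite directions, and the mean of 61.8 ± 11.4 in hypoxia against 71.2 ± 13.7 in normoxia (SD, n = 3 each) rested on H9, whose hypoxia array is one of low lower quartile. The difference was -0.20 on the log2 scale (SE 0.19, 95% interval -0.61 to 0.20, limma adjusted p = 1, exact sign-flip p = 1). It was 0.10 without H9 and 0.03 without the 5 arrays of low lower quartile.

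After 24 h A2M had an intensity of 86.8 in hypoxia against 92.4 in normoxia in H9. In HS360 it was 65.3 in hypoxia against 67.6 in normoxia, and in HS401 56.1 against 57.3. All 3 pairs were lower in hypoxia, by 0.03 to 0.09 on the log2 scale, as was the case for 9.65% of all features, and the groups overlapped almost fully. The mean difference was -0.06 (SE 0.19, 95% interval -0.46 to 0.35, limma adjusted p = 1, exact sign-flip p = 0.25, the smallest that 3 lines allow). After 7 d the values were 71.0 in hypoxia against 79.3 in normoxia in H9, 53.1 against 56.5 in HS360, and 64.0 against 59.3 in HS401. The groups overlapped again, with a mean difference of -0.05 (SE 0.19, interval -0.45 to 0.36, adjusted p = 0.951, exact sign-flip p = 0.75).

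**Figure D2:**
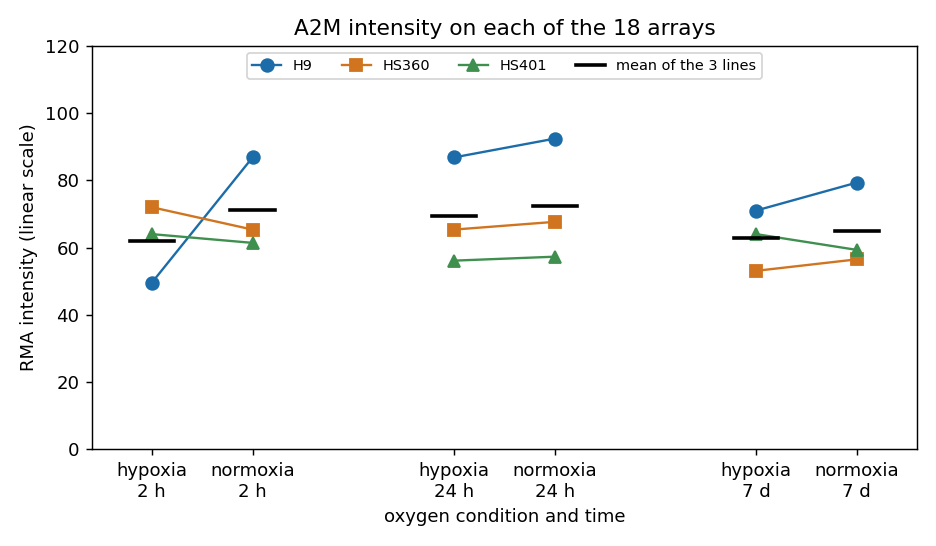
A2M RMA intensity (linear scale) on each of the 18 arrays, with hypoxia left of normoxia at 2 h, 24 h and 7 d, a line joining the arrays of one hESC line and a black bar at the mean of the 3 lines. The hypoxia means are 61.8, 69.4 and 62.7 and the normoxia means 71.2, 72.4 and 65.0, and the steepest line is H9 at 2 h (49.5 in hypoxia, 86.8 in normoxia).

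Over the mean of the 3 times A2M differed by -0.10 on the log2 scale (SE 0.11, 95% interval -0.34 to 0.13, limma adjusted p = 0.9997), with 3 pairs higher and 6 lower in hypoxia (exact sign-flip p = 0.371 over 9 pairs, which share 3 lines). The hypoxia effect on A2M did not differ detectably between times, by 0.15 at 24 h minus 2 h, 0.16 at 7 d minus 2 h and 0.01 at 7 d minus 24 h (limma adjusted p = 0.993 to 1). Neither did later times differ from earlier ones within hypoxia (-0.13 to 0.16) or within normoxia (-0.14 to 0.01), with adjusted p-values of 0.658 to 1, although 3.23% of all features passed for 7 d minus 2 h and 0.854% for 7 d minus 24 h in hypoxia, and 1.21% and 0.599% in normoxia. The 6 group means ran from 61.8 in hypoxia at 2 h to 72.4 in normoxia at 24 h, and neighbouring means in that order lay closer together than the spread within any group. A2M stayed below the median feature on all 18 arrays, between percentiles 21.5 and 37.7, and the weakness of its signal bounds what could be seen.

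Between lines no contrast of A2M passed the adjusted threshold. In H9 its lowest, median and highest intensities were 49.5, 83.1 and 92.4 over 6 arrays. They were 53.1, 65.3 and 72.0 in HS360 and 56.1, 60.3 and 64.0 in HS401. H9 was the top line in 5 of 6 groups, the exception being hypoxia at 2 h, where it was the bottom one. HS401 minus H9 was -0.34 (SE 0.13, 95% interval -0.62 to -0.05, limma adjusted p = 0.143), HS360 minus H9 -0.27 (adjusted p = 0.284) and HS401 minus HS360 -0.06 (adjusted p = 0.732). The F test over lines had an adjusted p of 0.161. After removal of each line's mean, the log2 values of A2ML1 and A2M correlated with r = -0.17 (Spearman -0.12) over the 18 arrays, which share lines and groups.

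The other measured members of the family were PZP, CD109, CPAMD8, C3, C4B and C5. No feature was named C4A, which was left out, and as its sequence is nearly identical to that of C4B, the C4B value may hold signal of both. None of these 6 passed an adjusted p of 0.05, the study's thresholds or an unadjusted p of 0.05 from limma at any time, against 0.00425% of all features past the adjusted p at 24 h and 0.0212% at 7 d. Lower values by the study's thresholds were given by 0.0127%, 0.0425% and 0.357% of all features at the 3 times. Their median hypoxia minus normoxia value was -0.10, -0.01 and 0.21 on the log2 scale at 2 h, 24 h and 7 d. The median over all features was 0.00, -0.03 and 0.06 at the same times. With the lower quartile of each array as a covariate, the median at 7 d was 0.09 for these 6 and -0.01 over all features.

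PZP, the pregnancy zone protein and the nearest relative of A2M, had values of 0.02, -0.06 and 0.17 at the 3 times. All 3 of its lines were above 0 at 7 d, as for 25% of all features. CD109, a membrane-anchored member that binds TGFβ receptors, reached 0.54 at 7 d (SE 0.28, limma adjusted p = 0.758). Its lines disagreed, with 0.67 in H9, -0.10 in HS360 and 1.04 in HS401, so the HS360 cultures, in which A2ML1 was higher by 1.06, gave no increase of CD109. CPAMD8, a member known from the development of the eye, had -0.07, -0.08 and 0.00. The complement components C3 and C4B, which carry the family's thiol ester but act by tagging surfaces, had 0.25 and 0.28 at 7 d with all 3 lines above 0, as for 25% of all features then. C5, the precursor of an anaphylatoxin, had -0.31, 0.08 and -0.17. At 2 h it had -0.03 in H9, 0.12 in HS360 and -1.03 in HS401, whose normoxia array then is one of low lower quartile.

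**Figure D3:**
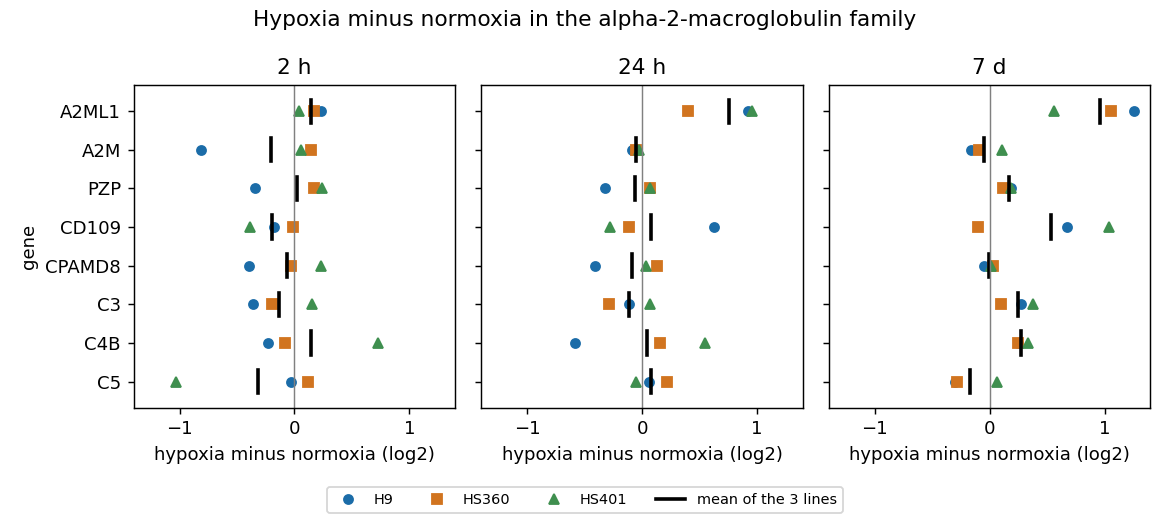
Hypoxia minus normoxia (log2, horizontal axis) of A2ML1, A2M and the 6 other measured members of the family at 2 h, 24 h and 7 d, with 1 symbol for each hESC line and a black bar at the mean of the 3 lines. A2ML1 has means of 0.15, 0.76 and 0.96 with every line above 0, while A2M stays at -0.20, -0.06 and -0.05.

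Differences between lines were found in 2 of the 8 family members by the F test (25%, against 15.1% of all features), namely A2ML1 and C5. C5 had a lowest, median and highest intensity of 46.5, 75.8 and 105 in HS401 over 6 arrays, against 21.3, 22.5 and 28.8 in H9 and 18.5, 20.5 and 25.3 in HS360. HS401 did not overlap the other lines in C5 and exceeded H9 by 1.64 (SE 0.15, limma adjusted p = 9.21e-06) and HS360 by 1.79 (adjusted p = 4.36e-06). H9 and HS360 were not told apart (-0.14 for HS360 minus H9, adjusted p = 0.553). HS401 is also the line in which the 5 hepatocyte and visceral endoderm markers named above were higher, and their part in the C5 difference was not tested.

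The receptors and partners of the inhibitors were all measured. LRP1, the endocytic receptor of protease-bound alpha-2-macroglobulin, had hypoxia minus normoxia values of 0.05, 0.17 and 0.19 at 2 h, 24 h and 7 d. LRPAP1, the chaperone of that receptor family, had -0.09, -0.09 and -0.41 (SE 0.12 and limma adjusted p = 0.428 at 7 d). None of the 4 genes passed the adjusted p or the study's thresholds, and their medians were -0.02, 0.06 and -0.14. LRP2, a related endocytic receptor named here after its values were seen, had an unadjusted p under 0.05 at 24 h (0.55) and at 7 d (-0.54), as LRPAP1 did at 7 d, in each case with all 3 lines on one side of 0. For comparison, 2.7% of all features passed that threshold at 24 h and 7.1% at 7 d.

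The 15 kallikreins, serine proteases of skin and other secretory epithelia, were all measured and none passed any of these thresholds. Their medians were -0.10, -0.11 and 0.16, with 4, 0 and 15 of them above 0 at 2 h, 24 h and 7 d, against 49.4%, 40.2% and 61.3% of all features. With the lower quartile of each array as a covariate 8 of 15 were above 0 at 7 d and the median was 0.02. KLK7, a protease of the outer epidermis and a target of A2ML1, had -0.14, -0.11 and 0.01. In H9 the kallikrein median was -0.53 at 2 h and -0.55 at 24 h, where the H9 hypoxia arrays are those of low lower quartile, and 0.31 at 7 d. It was -0.02, 0.16 and 0.05 in HS360 and 0.28, 0.05 and 0.03 in HS401, and these medians were not compared by a test. The H9 values of A2ML1 were above 0 at all 3 times.

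Of 34 other protease inhibitors (serpins, cystatins, Kunitz and Kazal types), 30 were measured and none passed the adjusted p or the study's thresholds. Their medians were -0.09, -0.03 and 0.02. SERPINB9, the granzyme B inhibitor, was at 0.30, 0.21 and 0.39, and RECK, a membrane-anchored inhibitor of metalloproteinases, at -0.24, -0.04 and -0.37. At 7 d 2 of the 30 were higher and 1 lower at an unadjusted p under 0.05 from limma, against 7.1% of all features. SERPINB9 was higher in hypoxia in each line at each time, as were A2ML1 and 0.561% of all features. Its lines stood in the order of A2ML1 (F test over lines, limma adjusted p = 4.13e-07). HS401 minus H9 was 1.305 and HS360 minus H9 -0.75. Of the 30, 9 passed that F test, against 15.1% of all features. The highest value of the 30 was 0.30, 0.44 and 0.64 at the 3 times.

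Genes of the tissues and programmes in which the inhibitors are best known did not move with A2ML1 beyond the thresholds. Of 16 epidermis markers, mostly of the upper layers but with the basal keratin KRT14 among them, 14 were measured and none passed. Their medians were -0.01, -0.07 and 0.11, and their summed intensity at 24 h ran from 979 to 1570 in hypoxia and from 918 to 1471 in normoxia. At 7 d it ran from 1299 to 1452 in hypoxia and from 1223 to 1340 in normoxia, so the ranges overlapped at both times. The median of the list at 7 d was -0.03 with the lower quartile as a covariate. KRT14, with a median intensity of 295 over the arrays, is part of the sums. Involucrin (IVL), filaggrin (FLG) and the keratin KRT1, which define the layer where A2ML1 is known, lay below the median feature on average. The 16 acute phase and STAT3 response genes, a programme to which A2M belongs in rat liver, had medians of -0.01, -0.02 and 0.11 with none past the adjusted p or the study's thresholds. The 10 measured hepatocyte and visceral endoderm markers had medians of -0.16, 0.05 and -0.21 with none past them. Their summed intensity ran at 24 h from 490 to 1188 in hypoxia and from 675 to 888 in normoxia, and at 7 d from 691 to 2219 in hypoxia and from 683 to 5254 in normoxia. In HS401 at 7 d hypoxia minus normoxia was -2.52 for AFP and -1.47 for APOA1, where A2M had 0.11 and A2ML1 0.56, and the part of these cells in either value was not tested.

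Fibroblast markers were the 1 tissue list with calls. Their median was -0.13, -0.10 and 0.44 at the 3 times, and 12 of 13 were above 0 at 7 d, against 61.3% of all features. COL1A1 and COL3A1, fibrillar collagens, were each higher at 7 d (0.63) by the study's thresholds, as were 0.51% of all features. The summed intensity of all 13 at 7 d ran from 7743 to 14211 in hypoxia and from 8281 to 8963 in normoxia. By line, their median at 7 d was 0.79 in HS401, where A2ML1 had 0.56, 0.57 in H9, where A2ML1 had 1.26, and -0.08 in HS360, where A2ML1 had 1.06. At 24 h the fibroblast sum ran from 15915 to 18641 in hypoxia and from 16470 to 21084 in normoxia. The part of fibroblasts in the A2ML1 values was not tested. The 12 hESC markers had medians of 0.04, -0.07 and -0.08 and the 9 endothelial markers -0.02, -0.14 and 0.11, with none past the adjusted p or the study's thresholds.

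Genes known to respond to hypoxia were set beside A2ML1. Since some of them were called higher by the paper on these same arrays, their values and counts are a description. The 14 measured response genes, such as DDIT4, a brake on mTOR, and PDK1, which turns pyruvate away from the mitochondrion, had medians of 0.83, 0.90 and 0.82, with 8, 10 and 8 of them higher by the study's thresholds over these times, against 0.0722%, 0.378% and 0.51% of all features. DDIT4 had 1.79 at 2 h and PDK1 0.94, where A2ML1 had 0.15. NDRG1, another of them, had 0.13, 0.71 and 1.08, the values of the list nearest to those of A2ML1, and was singled out after these were seen. By line the medians of the list at 2 h were 1.17 (H9), 0.70 (HS401) and 0.18 (HS360). In the same cultures A2ML1 differed by 0.23 (H9), 0.04 (HS401) and 0.17 (HS360). Whether A2ML1 differed from these genes in its time course was not tested.

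A2ML1 and A2M lie near each other on the short arm of chromosome 12, with 3 measured genes between them, and 25 of the 73 annotated genes of that stretch were measured. The 23 others had median hypoxia minus normoxia values of -0.01, 0.02 and 0.04 at 2 h, 24 h and 7 d, with none past the adjusted p. RIMKLB, the next measured gene on one side of A2ML1 and an enzyme that joins glutamate to N-acetylaspartate, had 0.16, 0.13 and 0.32 (limma adjusted p = 0.709 at 7 d). M6PR, the mannose 6-phosphate receptor on its other side, had -0.03, 0.02 and -0.20. KLRG1, a receptor of lymphocytes, had 0.03, 0.24 and 0.06, and the non-coding LINC00612 next to A2M had -0.22, -0.15 and 0.27. At the study's thresholds 1 neighbour was called, LOC728715, which was lower at 7 d (-1.49, SE 0.33, adjusted p = 0.258), as were 0.357% of all features, and lies beyond A2M and PZP.

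**Figure D4:**
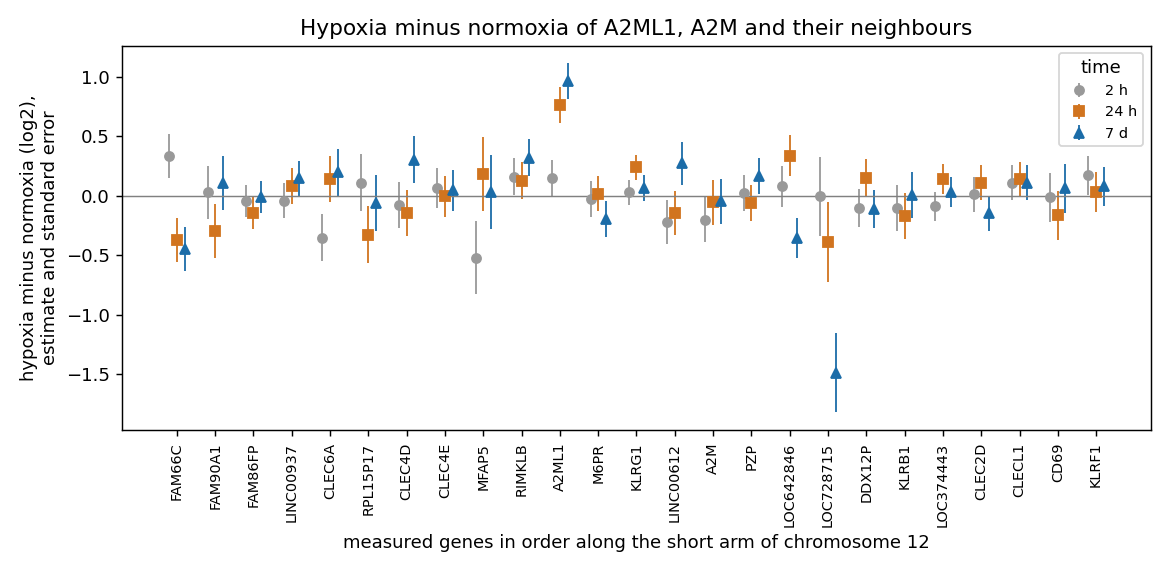
Hypoxia minus normoxia (log2, estimate and standard error) of the 25 measured genes around A2ML1 and A2M, in order along the short arm of chromosome 12, at 2 h, 24 h and 7 d. A2ML1 stands at 0.76 and 0.96 at 24 h and 7 d, its neighbours RIMKLB and M6PR lie between -0.20 and 0.32, and LOC728715 is at -1.49 at 7 d.

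The same arm holds some genes used by pluripotent cells, and of 13 genes listed from that region 9 were measured. NANOG and PHC1 were among those not measured. The 9 include RIMKLB, M6PR, KLRG1 and MFAP5, which are also counted among the neighbours, so they are not pluripotency genes alone. None of the 9 passed the adjusted p or the study's thresholds, and the medians were -0.03, 0.13 and 0.06. The 2 with the largest mean change were RIMKLB, given above, and SLC2A14, a glucose transporter, which had -0.02, 0.34 and 0.23. Between lines, 7 of the 9 differed by the F test, against 15.1% of all features, and the basis of this was not tested.

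Among 17307 named protein-coding features, 5 resembled A2ML1 most over the 18 arrays once each line's mean was removed. They were ADCY8, a calcium-stimulated adenylyl cyclase of neurons (r = 0.937), PTPRB, a receptor phosphatase of endothelial cells (r = 0.918), DNAH11, a dynein of motile cilia (r = 0.905), ADAMTS20, a secreted metalloproteinase (r = 0.901), and CCL26, the chemokine eotaxin-3 (r = 0.900). These values describe likeness over arrays that share lines and groups. Their hypoxia minus normoxia values were part of what chose them and are a description. ADCY8 had 0.09, 0.78 and 1.16, PTPRB 0.10, 0.61 and 0.67, and CCL26 0.04, 0.73 and 0.75. DNAH11 (0.11, 0.85, 0.43) and ADAMTS20 (0.26, 1.18, 0.78) had their highest value at 24 h. The choice was not stable: 2 of the 5 were again among the top 5 with Spearman's correlation, 1 without removal of the line means, and 2 or 3 when a line was left out.

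The features most like A2M were HPS1, a factor of lysosome-related organelles (r = 0.795), KCNJ15, a potassium channel (r = 0.778), JCAD, a junction protein of endothelial cells (r = 0.763), GARIN1B (r = 0.756) and PSTPIP2, an actin-associated protein (r = 0.755). Their hypoxia minus normoxia values lay between -0.28 and 0.14 at all times. Of these 5, none was again among the top 5 when H9 was left out or when the line means were kept, and 1 or 2 were under the other settings tried.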

How the data were processed

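The authors isolated RNA from the cultures and hybridized it to Affymetrix Human Exon 1.0 ST arrays. Per their methods, RMA (background correction, quantile normalization and summarization) was run in Chipster, with probes assigned to Entrez genes by a custom CDF. Tool versions and genome build were not given in the sources used here. The deposited intensity values are linear. Their logarithms to base 2 (log2), rounded to 0.01 by the look of the values, were used here for all 23536 features. Of these, 20727 were named through the platform table and 2809 carried no name.

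Hypoxia was compared with normoxia in limma 3.58.1 (R 4.3.3, two-sided moderated tests), with 6 group means plus a fixed term for the line, fitted to 18 arrays (10 residual and 4.24 prior degrees of freedom), and p-values were adjusted over all features by the Benjamini-Hochberg method at 0.05. The authors' methods name limma and no block. The term was added since every group holds the same 3 lines. After removal of group means, arrays of a line correlated above 0.1 across genes in 8 of 9 pairs (-0.00534 to 0.776). Lines served as replicates, with 1 culture each, so the p-values measure the spread between these arrays. The number of arrays limits the precision. The fit was tested on simulated data. The members, gene lists and tests were chosen with earlier results of these data known. Named genes were both members, the family, the chromosome 12 neighbours, of each list up to 4 members past a threshold or else the 2 with the largest mean change, and the 5 features most like each member. Some genes were named outside this rule as examples, namely SOX2, LIN28A, DNMT3B, KLK7, IVL, FLG and KRT1. Others were named after their values were seen and are marked so. The alternatives were no block or a random block, single time points, other normalizations and filters, and each line left out.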

Additional observations from a re-analysis of the deposited data

How the results depend on the processing

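The alternatives were run for A2ML1 and A2M, and calls of other genes were not repeated under them. A2ML1 at 2 h did not pass the adjusted p under any of them. Without the replicate block its value at 2 h was 0.15 (adjusted p = 1, limma), and no A2M contrast passed. Leaving out each line in turn, A2ML1 was 0.10 to 0.20 at 2 h, 0.66 to 0.94 at 24 h and 0.81 to 1.16 at 7 d. Without the 5 arrays of low lower quartile it was 0.41 at 24 h, and its line differences were -0.41 for HS360 minus H9 (adjusted p = 0.178) and 0.51 for HS401 minus H9 (adjusted p = 0.0919), with 13 arrays in the fit. No alternative for A2M passed the adjusted p of 0.05 (151 tests, smallest adjusted p 0.051).
The sign of A2M, whose values lay near 0, changed under some of them, and the cause was not tested. Hypoxia minus normoxia at 2 h was 0.0257 without the 5 arrays, and leaving out a line gave -0.38 to 0.10 at 2 h, -0.12 to 0.01 at 7 d and -0.18 to 0.0233 over the mean of the times, positive in each case without H9. HS401 minus HS360 was 0.12 after a second quantile normalization, 0.04 with arrays centred on the median, 0.0939 with the lower quartile as a covariate and 0.0622 without the 5 arrays. Between times the hypoxia effect turned for 24 h minus 2 h (-0.0939 without the 5 arrays and -0.14 to 0.315 over the lines left out), for 7 d minus 2 h (-0.0723 and -0.09 to 0.35) and for 7 d minus 24 h (-0.12 after quantile normalization, -0.06 centred, -0.12 with the covariate, and a lowest value of -0.055 without HS401). Within normoxia 24 h minus 2 h was -0.0148 after quantile normalization, -0.0147 with the covariate and -0.025 to 0.07 over the lines left out. Within hypoxia 24 h minus 2 h was -0.0239 without the 5 arrays and -0.165 to 0.335 over the lines left out, and 7 d minus 2 h was -0.13 after quantile normalization, -0.0567 centred, -0.11 with the covariate, -0.25 without the 5 arrays and -0.22 to 0.26 over the lines left out. Restricting the fit to features above the median feature gave no value for either gene, since both lay below it on average, and the fits by time point or block do not apply to contrasts across times or lines.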
